A study of Mus musculus with 8 samples.

Results

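Potassium channel genes were taken from the deposited gene count table as the protein-coding genes whose name begins with Kcn and whose mean count over the 8 mRNA libraries was at least 50. This gave 69 of the 94 protein-coding Kcn genes in the table, which holds 54532 genes in all. Because the rule used the mRNA level, levels are described here and not tested. The difference between genotypes was not part of the rule. Just inside the limit lay Kcnj8, Kcnh6 and Kcnmb2, with mean counts of 64.5, 65.25 and 77.88, and just outside it Kcnu1, Kcng3 and Kcnj13, with 43.12, 41.75 and 41.5.

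The data come from brains of 3-month-old male mice, either wild type (WT) or lacking Nsun5 by label (knockout, KO). Nsun5 puts a methyl group on a cytosine of ribosomal RNA. The series asks how loss of that methylation acts in the brain and on sleep. Ribosome profiling, which sequences the RNA fragments shielded by ribosomes (footprints), gave 4 WT and 4 KO libraries, and the same table holds an mRNA library under each of these 8 names. The labels describe whole brain, give 5 mice of each genotype from the same litter, and name no treatment other than anaesthesia. They tie no library to an animal and do not describe the knockout allele, so the p-values below measure the spread between libraries, which may be partly technical.

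Potassium channels let potassium leave the cell or, in some families, enter it, and so set the resting potential of neurons, end the action potential and limit how often a neuron fires. Voltage-gated (Kv) channels open on depolarization and are built from several pore subunits with helper proteins on the inside. Calcium- and sodium-activated channels answer the ions that enter during firing, inward rectifiers hold the cell near rest, and leak channels stay open at rest. In the brain these channels shape firing patterns, and in glia they clear the potassium that active neurons release.

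Nsun5 itself (ENSMUSG00000000916, chr5:135369953-135376805, plus strand) did not separate the groups. Its mRNA counts were 91, 82, 103 and 109 across WT libraries 1 to 4, against 102, 124, 83 and 110 across KO libraries 1 to 4. The difference was 0.13 ± 0.15 on the log2 scale (± SE, 4 libraries a group, adjusted p = 0.801 by edgeR). Directions below are therefore between libraries as labelled, and KO stands for a library labelled KO. The mRNA libraries held 15.6 to 17.8 M counts (M, mega) and the footprint libraries 0.586 to 3.49 M. Counts on protein-coding genes were 0.792 to 1.47 M in the WT footprint libraries and 0.233 to 0.847 M in the KO ones, so the footprint comparisons below set deeper WT against shallower KO libraries. The 69 genes took 0.499, 0.499, 0.591 and 0.55% of the mRNA counts in WT libraries 1 to 4 and 0.591 to 0.62% in the KO libraries. They took 0.395 to 0.448% of the protein-coding footprint counts in WT and 0.37 to 0.404% in KO. On the first mRNA principal component WT libraries 1 and 2 lay away from the rest, at −29.71 and −36.02 against 1.745 to 23.77 for the other 6 libraries. On that of footprints KO libraries 1 and 3 lay farthest out, at 36.51 and −51.97 against −10.21 to 9.396 for the other 6. Counts and medians over all members are also given without WT libraries 1 and 2. In footprints and translational efficiency they are given without KO libraries 1 and 3 as well. Role medians in mRNA are given without the WT pair too, and values of single genes where they move most.

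The 69 genes lay on 18 chromosomes, 9 of them on chromosome 2. A RefSeq promoter window of 300 bases (250 before to 50 after the transcript start, assembly GRCm38.p6) was matched by symbol for 49 of them. The windows of the 4 genes with the lowest p in the mRNA comparison are printed here to show the bases around their RefSeq start sites. The start site of Kcna2 lies 421 bases inside the gene span in the count table, so its window lies within that span. The windows run 5′ to 3′ on the gene's own strand, at chr2:63184238-63184537 for Kcnh7 and chr12:75177283-75177582 for Kcnh5 on the minus strand, and at chr1:192190527-192190826 for Kcnh1 and chr3:107101317-107101616 for Kcna2 on the plus strand. Capitals mark the GC box, GGGCGG on either strand, a motif that members of the Sp family of transcription factors can bind.
Kcnh7: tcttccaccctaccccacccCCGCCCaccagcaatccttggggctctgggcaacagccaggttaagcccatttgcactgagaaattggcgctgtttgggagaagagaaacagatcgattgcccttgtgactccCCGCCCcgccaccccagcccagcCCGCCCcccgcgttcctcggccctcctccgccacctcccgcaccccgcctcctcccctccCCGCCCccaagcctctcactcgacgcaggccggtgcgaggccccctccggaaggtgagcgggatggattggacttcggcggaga
Kcnh5: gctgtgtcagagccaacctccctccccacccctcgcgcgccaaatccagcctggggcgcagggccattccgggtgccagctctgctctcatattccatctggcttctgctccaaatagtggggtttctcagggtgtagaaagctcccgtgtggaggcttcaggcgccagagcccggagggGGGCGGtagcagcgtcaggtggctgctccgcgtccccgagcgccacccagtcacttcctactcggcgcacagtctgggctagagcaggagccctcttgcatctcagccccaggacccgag
Kcnh1: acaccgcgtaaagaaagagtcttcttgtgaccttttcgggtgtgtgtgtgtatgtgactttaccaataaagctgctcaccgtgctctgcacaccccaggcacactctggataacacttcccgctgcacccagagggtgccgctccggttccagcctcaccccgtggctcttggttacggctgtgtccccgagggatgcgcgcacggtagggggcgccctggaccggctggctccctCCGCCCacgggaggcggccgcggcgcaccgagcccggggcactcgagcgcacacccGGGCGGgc
Kcna2: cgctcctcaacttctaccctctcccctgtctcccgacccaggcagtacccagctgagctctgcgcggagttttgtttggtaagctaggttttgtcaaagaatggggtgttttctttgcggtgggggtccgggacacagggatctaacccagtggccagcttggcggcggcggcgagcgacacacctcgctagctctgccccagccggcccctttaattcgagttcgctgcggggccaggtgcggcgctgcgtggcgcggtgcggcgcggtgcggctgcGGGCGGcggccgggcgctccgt
The GC box occurred 4 times in the window of Kcnh7, 2 times in that of Kcnh1 and 1 time each in those of Kcnh5 and Kcna2. It was present in 26 of the 49 member windows (53.1%) and in 42.8% of all 20478 windows. TATAAA, the core of the TATA box, was present in 2.0% of member windows and 13.2% of all windows. CACGTG, an E-box, was present in 6.1% and 7.7%, and TTCAGCACC, a part of the RE1 element, in 2.0% and 0.4%. TGACGTCA, the cAMP response element, was present in 0 of 49 and in 2.2% of all. The median base composition was 62.7% G and C in member windows and 55.0% in all, with a median of 13 and 11 CpG. These matches describe letters only and say nothing of binding.

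Per transcript length, mRNA levels of the 69 genes spanned 87.3-fold (deposited RPKM, a read count scaled to gene length and library size), with a median of 8.55. RPKM reached 10 for 30 genes and stayed under 5 for 22. The highest level was that of Kcnab2, a Kv beta subunit, at 87.2 ± 13.1 RPKM (SD over 8 libraries). It was followed by Kcnj4 at 66.3 ± 12.3, a strong inward rectifier of forebrain neurons, and Kcnk1 at 41.9 ± 5.102, a leak channel. Kcnj10, the main inward rectifier of astrocytes, stood at 40.6 ± 6.37, and Kcnip3 at 40.2 ± 3.59 and Kcnip2 at 35.8 ± 6.303, both of them calcium-binding partners of Kv4 channels. Kcnk1, Kcnj10 and Kcnip3, next to each other in this order, differed by less than their SD. Next came Kcnj9, a G-protein-gated inward rectifier, at 32.7 ± 7.199, the silent Kv subunit Kcnf1 at 28.8 ± 4.26, and Kcnv1 at 26.6 ± 2.36, another silent subunit. The lowest levels were those of Kcnk10 at 0.999 ± 0.167, Kcnh6 at 1.08 ± 0.287, Kcnk6 at 1.16 ± 0.2105, Kcnmb2 at 1.48 ± 0.321 and Kcnj8 at 1.502 ± 0.385 RPKM.

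By role, the highest level belonged to Kcna2 among Kv1 channels (24.6 ± 3.796 RPKM), Kcnc4 among Kv2 to Kv4 channels (22.9 ± 2.55) and Kcnf1 among silent subunits. Among calcium- or sodium-activated channels it belonged to Kcnma1, the large-conductance BK channel (14.2 ± 1.45), among inward rectifiers to Kcnj4, among leak channels to Kcnk1 and among auxiliary subunits to Kcnab2. The plot of RPKM by library shows these levels by role.

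**Figure D1:**
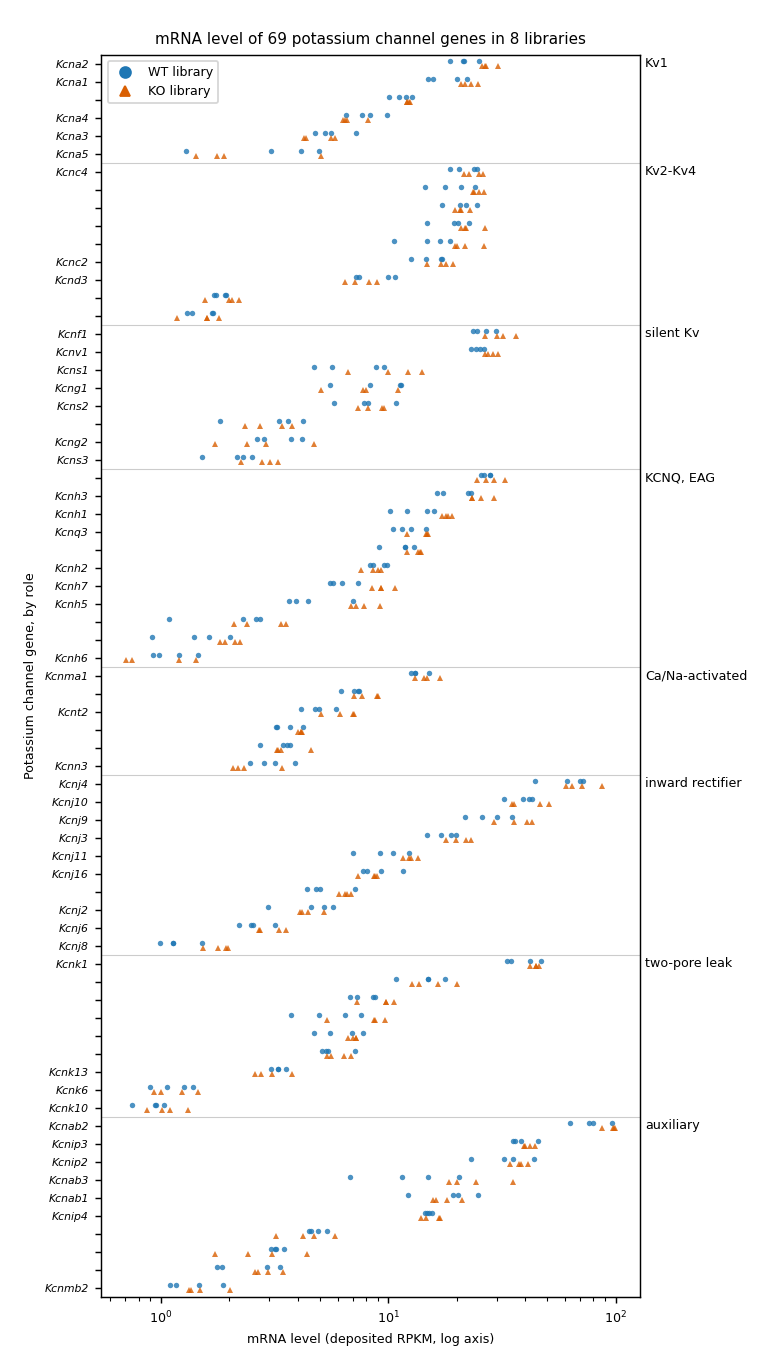
Deposited mRNA RPKM (log axis) of the 69 potassium channel genes, grouped by role, with 1 point for each of the 4 WT (circles) and 4 KO (triangles) libraries. Levels run from a mean of 0.999 RPKM for Kcnk10 to 87.2 for Kcnab2, and each role holds both high and low genes. Names are printed for the genes described in the text.

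For mRNA, the question was whether transcript levels of these channels differ between the genotypes. Most potassium channel transcripts had a higher value in the KO libraries: 51 of 69 had a positive log2 fold change and 18 a negative one, with a median of 0.17, where all 16062 genes tested had a median of −0.01 and 7811 positive values. None of the 69 passed edgeR's quasi-likelihood test at a Benjamini-Hochberg adjusted p under 0.05, and none of all genes did (0%). The lowest adjusted p among members was 0.223. At an unadjusted p under 0.05, 18 members (26.1%) were higher, against 5.44% of all genes tested, and 0 were lower, against 5.23%. DESeq2, the alternative count test, called 2 members, Kcnh7 (adjusted p = 0.000209) and Kcnh5 (0.0452), both higher, where it called 0.36% of all genes higher and 0.303% lower.

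The count rested on some libraries more than others. Without WT libraries 1 and 2, 47 of 69 members were positive with a median of 0.10, and 8 (11.6%) were higher at an unadjusted p under 0.05, against 3.56% of all genes. The count of 18 became 8 without KO library 1 (against 3.31% of all genes higher), 10 without WT library 2 (3.47%) and 28 without WT library 3 (6.24%). Relative to the mean of all libraries, the median member stood at −0.20 and −0.15 (log2) in WT libraries 1 and 2, at 0.06 and −0.01 in WT libraries 3 and 4, and at 0.08 to 0.12 in the 4 KO libraries.

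In 7 members the KO libraries all lay above the WT libraries (10.1%, against 2.99% of all genes), among them Kcnh7, Kcnh1, Kcna2, Kcnj8, Kcnh3 and Kcnv1. In 0 members they all lay below (against 2.71%). Levels per library are given in CPM, counts scaled to a common library size by TMM, and they compare libraries for 1 gene and not genes with each other.

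**Figure D2:**
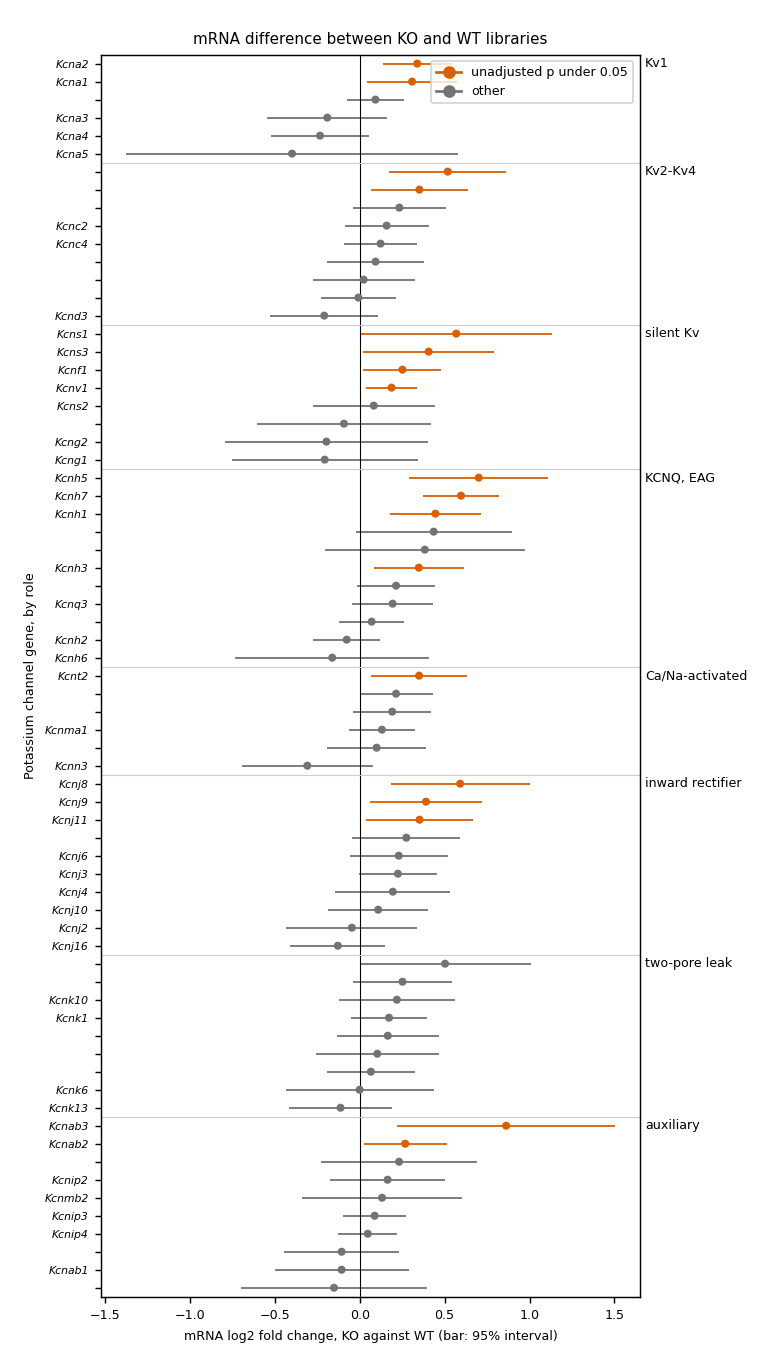
mRNA log2 fold change of KO against WT libraries for the 69 genes by role, with 95% intervals from edgeR (n = 4 libraries each). The 18 genes at an unadjusted p under 0.05 all lie to the right of 0, and none of the 69 passed the adjusted threshold. Names are printed for the genes described in the text.

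Among KCNQ and EAG channels, 9 of 11 members were positive (median 0.35, or 0.15 without WT libraries 1 and 2). At an unadjusted p under 0.05, where 5.44% of all genes were higher, 4 members were, all EAG-type channels encoded by Kcnh genes. Without WT libraries 1 and 2, Kcnh7, Kcnh1 and Kcnh5 stayed under 0.05 (edgeR unadjusted p = 0.0017, 0.0106 and 0.0402) and Kcnh3 did not (0.162). Kcnh7 (ENSMUSG00000059742, chr2:62693414-63184287, minus strand) encodes an erg channel, which opens again as the membrane repolarizes and slows firing. It had 85.4, 88.3, 114 and 96.3 mRNA CPM across WT libraries 1 to 4, against 144, 143, 164 and 130.2 across KO libraries 1 to 4. All KO values exceeded all WT values, and the difference was 0.60 ± 0.10 (log2, ± SE, 95% interval 0.37 to 0.82, edgeR adjusted p = 0.223). Kcnh7 overlaps the protein-coding gene Gca, and the sources used here do not say whether strand was used in counting. Kcnh5 (ENSMUSG00000034402, chr12:74897220-75177332, minus strand), an eag channel of neurons, had 15.1, 16.2, 28.7 and 18.1 mRNA CPM across WT libraries 1 to 4, against 32.1, 37.4, 29.3 and 28.2 across KO libraries 1 to 4. WT library 3 lay at the level of the lower KO libraries, so the groups overlapped; the fitted log2 difference was 0.70 ± 0.19 (edgeR adjusted p = 0.323).

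Kcnh1 (ENSMUSG00000058248, chr1:192190774-192510159, plus strand), the founding mammalian eag channel, had 75.7, 89.7, 118 and 110.0 mRNA CPM across WT libraries 1 to 4, against 135, 141, 127 and 133 across KO libraries 1 to 4. The groups did not overlap, WT libraries 1 and 2 were the lowest, and the log2 fold change was 0.45 ± 0.12. Kcnh3, an elk channel of the forebrain, had 95.6, 101, 131 and 134 mRNA CPM in WT and 169, 136, 148 and 136 in KO, and the highest WT value lay just under the lowest KO value (0.35 ± 0.12). Without WT libraries 1 and 2 the log2 fold changes were 0.47 for Kcnh7, 0.44 for Kcnh5, 0.23 for Kcnh1 and 0.15 for Kcnh3. Kcnh1 overlaps Hhat and Kcnh3 overlaps Mcrs1, both protein-coding. On the other side of 0, Kcnh2, the erg channel also known from the heart, had 41.9, 40.8, 46.8 and 48.5 mRNA CPM in WT and 41.9, 44.2, 36.9 and 45.7 in KO, with overlapping groups (−0.08 ± 0.09).

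Kv1 channels, which sit along axons and at their terminals, went both ways, with 3 of 6 positive and a median of −0.05. Their median was −0.06 without WT libraries 1 and 2. Kcna2 (ENSMUSG00000040724, chr3:107101146-107115005, plus strand), a main channel of the axon beside the node, had 255, 225, 301 and 259 mRNA CPM across WT libraries 1 to 4, against 321, 364, 308 and 322 across KO libraries 1 to 4. The lowest KO library lay above the highest WT library, and the log2 fold change was 0.34 ± 0.09 (edgeR adjusted p = 0.323), or 0.23 without WT libraries 1 and 2. Kcna1, its usual partner in the same channels, had 72.2, 76.3, 107 and 96.8 mRNA CPM in WT and 120.3, 111, 99.9 and 105 in KO, with WT library 3 inside the KO range (0.31 ± 0.12). WT libraries 1 and 2 were its lowest, and without them the value was 0.10. Values below 0 belonged to Kcna3, with 9.13, 10.2, 10.8 and 13.8 mRNA CPM in WT and 10.8, 11.2, 8.14 and 8.397 in KO (−0.19 ± 0.16), to Kcna4, an A-type channel with 31.8, 48.3, 40.5 and 37.4 mRNA CPM in WT and 32.01, 30.8, 31.4 and 40.00 in KO (−0.23 ± 0.13), and to Kcna5, with 3.72, 14.4, 8.83 and 11.9 mRNA CPM in WT and 5.47, 5.08, 4.104 and 14.6 in KO (−0.40 ± 0.44). In each of these 3 the groups overlapped, and the edgeR adjusted p was 0.716, 0.558 and 0.793.

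Of 9 pairs of members within 500 kb of each other, 5 had log2 fold changes of the same sign and 4 of opposite sign. The nearest pair, Kcnj10 and Kcnj9 on chromosome 1, lies 11.9 kb apart, with 0.11 and 0.39. Kcna2 and Kcna3 lie 63.1 kb apart on chromosome 3, with log2 fold changes of 0.34 and −0.19. Kcna1 and Kcna5 lie 105 kb apart on chromosome 6, with 0.31 and −0.40. Whether the members of any pair differ was not tested.

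Among Kv2, Kv3 and Kv4 channels, 7 of 9 members were positive (median 0.12), or 8 of 9 (0.11) without WT libraries 1 and 2. Kcnd3, an A-type Kv4 channel, had 104, 96.8, 70.2 and 71.7 mRNA CPM in WT and 62.2, 68.7, 86.2 and 79.5 in KO. The 2 highest values were those of WT libraries 1 and 2, and its log2 fold change of −0.21 ± 0.14 turned to 0.06 without them.

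Silent subunits form no channel alone and alter the channels they join, chiefly Kv2. Of the 8 members, 5 were positive (median 0.14). At an unadjusted p under 0.05, 4 were higher, Kcnv1, Kcnf1, Kcns1 and Kcns3, where 5.44% of all genes were. Without WT libraries 1 and 2, 6 of the 8 were positive (median 0.16). Of the 4, Kcnv1 alone then stayed under 0.05 (edgeR unadjusted p = 0.0395). Kcnf1 had 0.2665, Kcns1 0.4046 and Kcns3 0.0838. Kcnv1 (ENSMUSG00000022342, chr15:45106284-45114920, minus strand) had 107, 122, 118 and 113 mRNA CPM across WT libraries 1 to 4, against 140.5, 123, 133 and 127 across KO libraries 1 to 4. The groups touched without overlapping, between WT library 2 and KO library 2, and the log2 fold change was 0.19 ± 0.07 (edgeR adjusted p = 0.4001) and 0.18 without WT libraries 1 and 2. Kcng1 (51.2, 52.2, 25.3 and 37.7 mRNA CPM in WT and 35.2, 22.9, 49.7 and 36.5 in KO) and Kcng2 (12.6, 11.3, 8.59 and 7.998 mRNA CPM in WT and 8.74, 7.204, 14.2 and 5.22 in KO) had values below 0, −0.21 ± 0.25 and −0.20 ± 0.27. Both turned positive without WT libraries 1 and 2, to 0.19 and 0.09.

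Of the calcium- or sodium-activated channels, 5 of 6 were positive (median 0.16), or 4 of 6 (0.11) without WT libraries 1 and 2. Kcnt2, a sodium-activated channel, had 28.8, 34.6, 41.2 and 33.2 mRNA CPM in WT and 48.5, 42.6, 49.2 and 35.4 in KO. The groups overlapped through WT library 3 and KO library 4, and the log2 fold change was 0.35 ± 0.13 (edgeR adjusted p = 0.4001). Kcnn3, a small-conductance channel that follows the action potential, had 33.5, 41.4, 26.1 and 29.9 mRNA CPM in WT and 23.1, 21.9, 24.4 and 36.1 in KO, with KO library 4 inside the WT range (−0.31 ± 0.18, or −0.09 without WT libraries 1 and 2).

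Inward rectifiers were positive in 8 of 10 (median 0.23, or 0.11 without WT libraries 1 and 2). Kcnj8, the pore of the ATP-sensitive channel of vascular mural cells, had 2.91, 2.56, 2.903 and 3.91 mRNA CPM across WT libraries 1 to 4, against 4.97, 5.08, 3.92 and 4.596 across KO libraries 1 to 4. The groups met without overlap at 3.914 in WT library 4 and 3.917 in KO library 3, and the log2 fold change was 0.59 ± 0.19 (edgeR adjusted p = 0.3600). The gene had 40 to 86 mRNA counts per library. Without WT libraries 1 and 2 its log2 fold change was 0.44 ± 0.22 (edgeR unadjusted p = 0.0774). Markers of endothelium and pericytes, taken as 1 mixed list, had a median of −0.01 over 7 genes. The part of mural cells in the Kcnj8 value was not tested. Kcnj9 (0.39 ± 0.15) and Kcnj11 (0.35 ± 0.14), the neuronal pore of the ATP-sensitive channel, were the other inward rectifiers at an unadjusted p under 0.05. Without WT libraries 1 and 2 they stood at 0.19 and 0.13. Kcnj16, a partner of Kcnj10 in glia, had 46.2, 32.2, 30.7 and 36.9 mRNA CPM in WT and 29.1, 34.2, 34.7 and 35.5 in KO, with WT library 1 the highest (−0.13 ± 0.13).

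Leak channels had 0 of 9 members at an unadjusted p under 0.05, with 7 positive and a median of 0.17, or 5 positive and 0.07 without WT libraries 1 and 2. Kcnk13, which is found in microglia, had 11.2, 9.62, 10.3 and 10.3 mRNA CPM in WT and 9.68, 8.68, 8.08 and 11.9 in KO (−0.11 ± 0.14), and the groups overlapped. Auxiliary subunits were positive in 7 of 10 (median 0.11), or in 5 of 10 (0.01) without them. Kcnab3, a Kv beta subunit, had the largest log2 fold change of all members, with 33.5, 19.6, 59.03 and 43.4 mRNA CPM across WT libraries 1 to 4, against 69.99, 102, 53.5 and 57.98 across KO libraries 1 to 4. WT library 2 was the lowest and KO library 2 the highest, the groups overlapped, and the log2 fold change was 0.86 ± 0.29 (edgeR adjusted p = 0.389) or 0.47 ± 0.24 without WT libraries 1 and 2. Its antisense gene Kcnab3os had 0 to 4 mRNA counts per library. Kcnab2, the more abundant beta subunit, had a log2 fold change of 0.27 ± 0.11 (0.11 without them) and Kcnab1 one of −0.11 ± 0.18.

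Genes that work with these channels without bearing a Kcn name are given for comparison, from lists of 41 genes. Of 23 tested channel partners, 18 were positive in mRNA (median 0.07). Adam22, a receptor for the secreted protein Lgi1, had 235 ± 9.41 in WT and 263 ± 12.3 in KO CPM (SD, n = 4 each), with a log2 fold change of 0.16 ± 0.06. Abcc8, the regulatory subunit of Kcnj11 channels (0.52 ± 0.20), and Dlg1, a scaffold (0.13 ± 0.06), were the others at an unadjusted p under 0.05, and 0 were lower. Beside this list and those that follow, 5.44% of all genes were higher and 5.23% lower at that p. Of 4 HCN channels, cation channels related to Kv channels, 2 were positive and 2 were lower at that p, Hcn3 (−0.35 ± 0.13) and Hcn4 (−0.42 ± 0.18). Hcn2 stood at 0.13 ± 0.12. Of 13 potassium pumps and transporters, 9 were positive (median 0.09), with 4 higher and 2 lower. Atp1b3, a beta subunit of the sodium pump, had −0.24 ± 0.07 and the chloride importer Slc12a2 −0.28 ± 0.08. None of the 40 tested passed the adjusted threshold, and Lrrc52 had too few counts to test. Leaving out WT libraries 1 and 2 gave medians of 0.06 for channel partners, −0.12 for HCN channels and 0.04 for pumps and transporters.

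Marker lists of cell types and regions are given beside these values. No gene in them passed the adjusted threshold, as none of all genes did. At an unadjusted p under 0.05 by edgeR, 11 of 12 myelin and 5 of 5 ependymal markers were lower, against 5.23% of all genes. At that p 6 of 10 cortical projection neuron markers were higher, against 5.44%. The other lists each had 0 to 2 genes at that p, all lower. All 10 markers of cortical projection neurons were positive in mRNA, with a median of 0.45, or 0.29 without WT libraries 1 and 2, and a summed level of 3206 to 4143 CPM in WT and 3738 to 4884 in KO. All 12 myelin markers were negative (median −0.41), with sums of 7259 to 7888 in WT and 4726 to 6501 in KO. Striatal (9 of 9 negative, median −0.38, 400.3 to 2178 CPM in WT and 562 to 2074 in KO), hippocampal (6 of 6 negative, −0.41, 158 to 239 and 133 to 217), choroid plexus (6 of 6, −0.85, 308 to 1162 and 48.8 to 1195) and ependymal markers (5 of 5, −1.20, 18.0 to 29.6 and 8.74 to 17.0) were below 0 throughout. These medians without WT libraries 1 and 2 were −0.43 for myelin, −0.50 for striatum, −0.29 for hippocampus, −0.25 for choroid plexus and −1.01 for ependyma. Medians were −0.14 for thalamus (6 genes, 159 to 252 and 150.4 to 263), −0.08 for inhibitory neurons (8 genes, 1155 to 1395 and 978 to 1276), −0.07 for astrocytes (10 genes, 3940.0 to 4595 and 4231 to 4797), −0.03 for microglia (6 genes, 227 to 255 and 224 to 239.8) and −0.01 for endothelium and pericytes (7 genes, 361 to 379.9 and 335 to 405). Hypothalamic markers (3 of 8 genes tested, −2.37) ran from 3.23 to 112 CPM in WT and 2.16 to 9.49 in KO, and cerebellar markers (5 of 8 genes tested, −0.62) from 78.0 to 141 and 54.7 to 70.3, with medians of −1.93 and −0.14 without WT libraries 1 and 2. Gabra6 and Cbln3, defining markers of cerebellar granule cells, had 0 footprints in every library. The part of cell or region make-up in the potassium channel values was not tested, and in whole tissue fewer cells of a type and less RNA per cell cannot be told apart.

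For footprints, the question was whether ribosomes on these transcripts differ between the genotypes. The signs ran the other way from mRNA: 30 of 45 members with enough footprints were negative and 15 positive, with a median of −0.14, where all 8476 genes tested had a median of −0.00. None passed edgeR (0% of all genes; lowest adjusted p among members 0.875), and DESeq2 called 0 (0.0472% of all genes higher, 0% lower). At an unadjusted p under 0.05, 3 of the 45 (6.7%), Kcnv1 and Kcnj6 among them, were lower, against 2.64% of all genes, and 0 were higher, against 2.88%. The lower count was 1 without WT library 1 (against 2.61% of all genes) and 1 without KO library 4 (2.23%). It was 1 without WT libraries 1 and 2 (1.76%) and 5 without KO library 1 (2.74%). Without KO libraries 1 and 3 it was 3 (2.38%), with 1 higher (2.42%) and a median of −0.17. The median SE of a member was 0.25 in footprints and 0.14 in mRNA.

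The other 24 members had too few footprints to test, with means of at most 13.88 counts. Of the 45, 35 had all 8 libraries over the count minimum. Kcnip4, Kcnj2, Kcnj3 and Kcns2 passed with all 4 WT libraries and fewer of the KO libraries over it, and all of these were negative. In all, 7 members passed with more WT than KO libraries and 0 with more KO libraries. Over the other 38 the footprint median was −0.10 (24 negative, 14 positive).

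Kcnv1 had 62.9, 53.3, 53.1 and 46.7 footprint CPM across WT libraries 1 to 4, against 34.2, 39.6, 46.1 and 36.3 across KO libraries 1 to 4. It was the 1 member whose KO libraries all lay below the WT libraries (2.22% of the 45, against 2.04% of all genes), and its log2 fold change was −0.48 ± 0.18 (edgeR adjusted p = 0.875). In 0 members did they all lie above, against 1.57% of all genes. Kcnj6, a G-protein-gated inward rectifier, had 28.3, 29.8, 40.99 and 20.7 footprint CPM in WT and 23.2, 16.9, 19.2 and 21.6 in KO, with WT library 4 inside the KO range (−0.58 ± 0.26, edgeR adjusted p = 0.881). The values of Kcnj6 rest on 50, 96, 112 and 55 footprint counts in WT and 19, 32, 10 and 22 in KO.

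Kcnh7, whose mRNA was higher, had 84.4, 52.1, 53.4 and 62.2 footprint CPM across WT libraries 1 to 4, against 36.6, 45.9, 59.6 and 46.1 across KO libraries 1 to 4. The groups overlapped and the log2 fold change was −0.43 ± 0.20 (edgeR adjusted p = 0.881), from 149, 168, 146 and 165 footprint counts in WT and 30, 87, 31 and 47 in KO. Kcna1 had 129, 253, 129.6 and 97.6 footprint CPM in WT and 129.5, 117, 76.9 and 95.2 in KO, with WT library 2 far above the others (−0.53 ± 0.27, or −0.17 without it). Kcnma1, with 101, 92.1, 86.7 and 80.3 footprint CPM in WT and 76.96, 86.02, 61.5 and 71.6 in KO, stood at −0.27 ± 0.15. For Kcna2, 75.9, 84.7, 88.6 and 96.9 footprint CPM in WT and 47.6, 66.5, 102 and 64.8 in KO gave −0.33 ± 0.20, and KO library 3 was the highest of all 8.

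The highest positive values were those of Kcng1 (0.74 ± 0.42) and Kcna3 (0.64 ± 0.34), followed by Kcnf1 (0.32 ± 0.24), Kcnh2 (0.24 ± 0.30), Kcnc2 (0.12 ± 0.24) and Kcnab2 (0.10 ± 0.15), none at an unadjusted p under 0.05. Kcna3 had 7.93, 8.06, 8.05 and 9.04 footprint CPM in WT and 15.9, 11.6, 17.3 and 8.83 in KO. KO library 4 lay inside the WT range and the counts were 9 to 26 per library.

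By role, the footprint median was −0.21 for Kv1 channels (1 of 4 positive), −0.02 for Kv2 to Kv4 (3 of 7), −0.08 for silent subunits (2 of 4) and −0.28 for KCNQ and EAG channels (2 of 8). It was −0.36 for calcium- or sodium-activated channels (0 of 4), −0.11 for inward rectifiers (2 of 8), −0.25 for leak channels (1 of 3) and 0.01 for auxiliary subunits (4 of 7). These role counts include the 7 members that passed the footprint filter with more WT than KO libraries. They were the inward rectifiers Kcnj2, Kcnj3 and Kcnj11, the calcium-activated Kcnn2, the silent subunit Kcns2 and the auxiliary Kcnip1 and Kcnip4. All but Kcnip1 were negative. Role medians without them were not taken. Footprint medians of the comparison lists were −0.10 for channel partners (5 of 19 positive), 0.06 for HCN channels (1 of 2) and −0.09 for pumps and transporters (4 of 11).

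Translational efficiency, the footprint level relative to the mRNA level, was tested in 1 edgeR fit over both kinds of library, as the term by which the effect of genotype differs between them. It asks directly whether the footprint difference departs from the mRNA difference, and it uses the same mRNA libraries as the comparison above. Of 45 members, 36 were negative and 9 positive, with a median of −0.35, where all 8146 genes had a median of 0.01. None passed (0% of all genes; lowest adjusted p among members 0.137). At an unadjusted p under 0.05, 10 members (22.2%) were lower, against 5.32% of all genes, and 2 (4.4%) were higher, against 5.7%. DESeq2 called 2 members, Kcnh7 (adjusted p = 0.00889) and Kcnv1 (0.0258), both lower, where it called 0.638% of all genes lower and 0.994% higher. Without WT libraries 1 and 2 the median was −0.23 and the counts were 7 lower, against 3.66% of all genes, and 1 higher, against 4.78%. Without KO libraries 1 and 3 the median was −0.40, with 9 lower (against 4.11% of all genes) and 1 higher (4.2%). Over the 38 members that passed the footprint filter evenly it was −0.34 (30 negative, 8 positive).

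Higher mRNA with lower footprints was found in 26 of the 45 members (57.8%) and in 30.2% of all genes. Among the 18 members with higher mRNA at an unadjusted p under 0.05, 15 could be tested in footprints. Of these, 11 had a footprint value below 0, beside 30 of all 45 members tested there. The share over all genes with higher mRNA at that p was not taken.

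**Figure D3:**
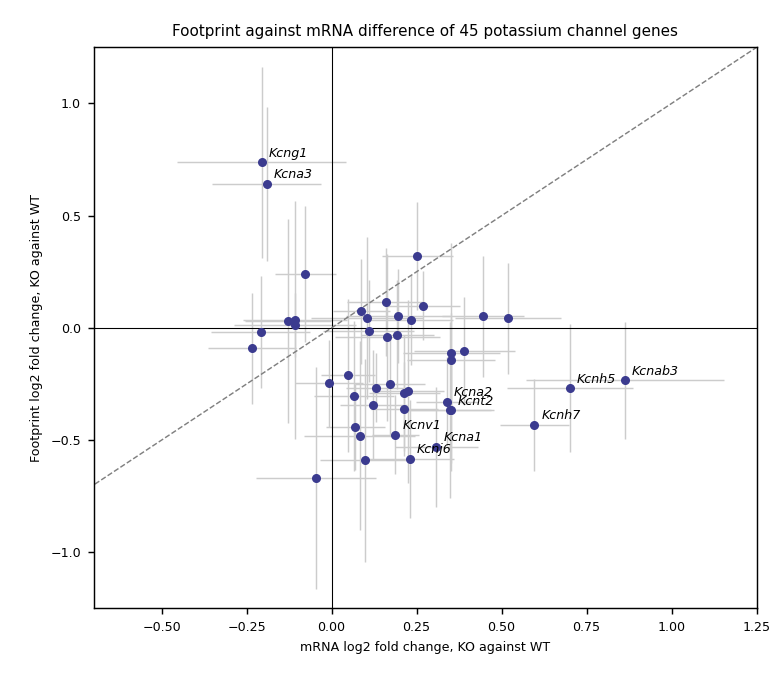
Footprint against mRNA log2 fold change (KO against WT) of the 45 potassium channel genes tested in both, with bars of 1 SE. The dashed line marks equal values, 36 genes lie below it, and genes at an unadjusted interaction p under 0.05 that the text describes are named.

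Kcnh7 had the lowest p of the members, with a log2 change of −0.99 ± 0.22 (± SE, 95% interval −1.44 to −0.53, edgeR adjusted p = 0.137). Its mRNA was higher by 0.60 and its footprints stood at −0.43. Kcnv1 followed with −0.62 ± 0.17 (edgeR adjusted p = 0.203), the member whose groups separated upward in mRNA and downward in footprints. Kcna2 (−0.65 ± 0.21), Kcnj6 (−0.79 ± 0.29), Kcna1 (−0.79 ± 0.30) and Kcnh5 (−0.88 ± 0.34) came next, with edgeR adjusted p from 0.256 to 0.348. For Kcnh5, 41.4, 45.3, 23.1 and 39.95 footprint CPM in WT and 18.3, 44.9, 24.99 and 30.4 in KO gave a footprint value of −0.27 ± 0.29 beside 0.70 ± 0.19 in mRNA. KO library 2 was as high as the WT libraries in its footprints. The efficiency values without WT libraries 1 and 2 were −0.15 for Kcna1 and −0.37 for Kcnh5, and without WT library 2 alone −0.35 for Kcna1.

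In the other direction stood Kcna3 (0.84 ± 0.36, edgeR adjusted p = 0.388) and Kcng1 (1.004 ± 0.48, edgeR adjusted p = 0.453), with lower mRNA values and higher footprint values. Kcng1 had 12.5, 7.44, 16.1 and 5.65 footprint CPM in WT and 7.33, 18.5, 23.1 and 20.6 in KO, from 6 to 44 counts per library, and the groups overlapped. Kcnh2 (0.36 ± 0.26), Kcnd3 (0.19 ± 0.28), Kcna4 (0.17 ± 0.27) and Kcnab1 (0.16 ± 0.24) were positive with p above the threshold. The value of Kcnd3 turned to −0.08 without WT libraries 1 and 2.

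By role, 7 of 8 KCNQ and EAG channels (median −0.48), 7 of 8 inward rectifiers (−0.46), 6 of 7 Kv2 to Kv4 channels (−0.19) and 4 of 4 calcium- or sodium-activated channels (−0.57) were negative. So were 3 of 3 leak channels (−0.33), 5 of 7 auxiliary subunits (−0.13), 2 of 4 silent subunits (−0.22) and 2 of 4 Kv1 channels (−0.24). These counts, too, include the 7 members that passed the footprint filter with more WT libraries, and all of those but Kcnip1 were negative. Channel partners had a median of −0.10 (14 of 19 negative), HCN channels of −0.02 (1 of 2) and pumps and transporters of −0.10 (6 of 11). Beside these, the 9 cortical projection neuron markers tested in both kinds were all negative (median −0.64), with footprint sums of 1031 to 1396 CPM in WT and 1015 to 1239 in KO, and myelin markers were positive in 9 of 12 (median 0.09). At an unadjusted p under 0.05 by edgeR, 5 of the 9 cortical markers were lower, against 5.32% of all genes. At that p 0 of the 12 myelin markers were higher or lower. Striatal markers were positive in 7 of 7 (0.50), thalamic in 4 of 5 (0.28) and choroid plexus in 2 of 2 (0.71). The 1 hypothalamic and 1 cerebellar gene tested had 6.23 and 1.36. Medians were −0.09 for hippocampus (1 of 3 positive), −0.001 for inhibitory neurons (3 of 7) and −0.01 for astrocytes (5 of 10). Microglia had 0.0007 (2 of 4) and endothelium and pericytes −0.11 (2 of 6). Hypothalamic footprint sums were 5.58 to 66.8 CPM in WT and 60.8 to 112 in KO. The part of the lists in the members' values was not tested.

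**Figure D4:**
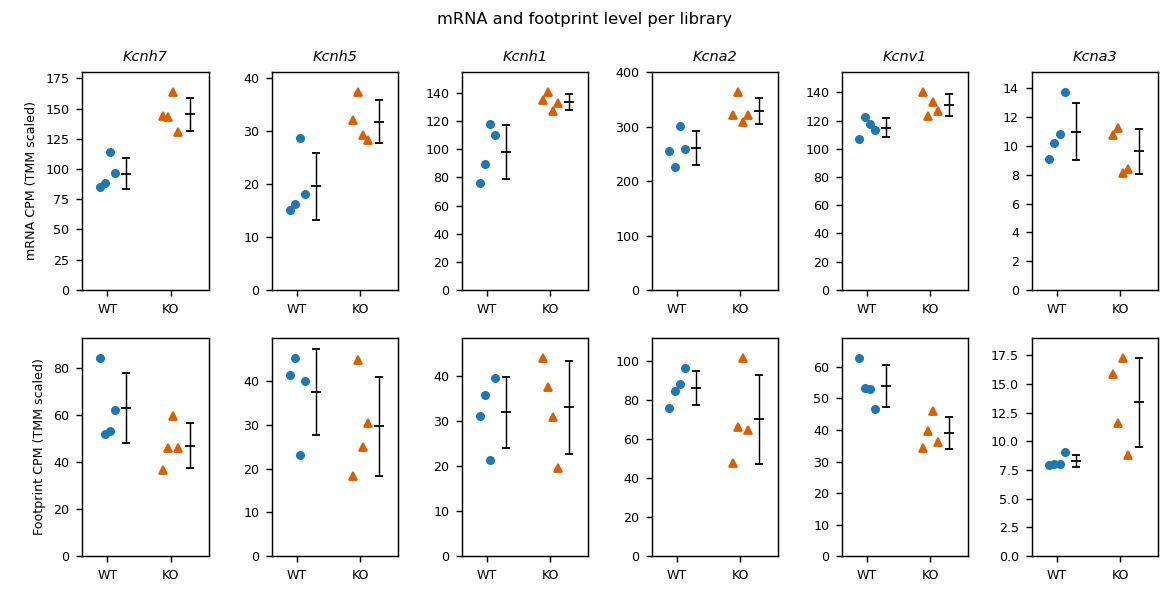
mRNA (top) and footprint (bottom) CPM of 6 potassium channel genes in each WT (circles) and KO (triangles) library, with the mean and SD of each group (n = 4). In Kcnv1 all KO values lie above WT in mRNA and below WT in footprints, and in Kcna3 all but 1 KO footprint value lie above WT.

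Within WT, the ratio of footprints to mRNA ordered the members by how many ribosome fragments they carried per transcript. The ratio of the mean RPKM of both kinds was set against the median of 8085 protein-coding genes, on a log2 scale. It was below that gene for 33 of the 45 members, and the median member stood at −0.53 (SD 0.11 over the 4 WT libraries), with 27.31% of genes lower. Both RPKM are divided by the same deposited length, so the length itself cancels. Footprints lie on coding sequence while mRNA reads also fall on untranslated parts, so a long untranslated part would lower this ratio. Lengths of untranslated parts were not taken, and their part in the member ratios was not tested. Across genes the correlation with log2 length was −0.18 over members and −0.12 over all 8085, as a description.

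The highest ratios were those of Kcnh5 at 1.97, Kcna1 at 1.82 and Kcnj6 at 1.602, each above at least 97.92% of the 8085 genes. Kcna3 at 0.62 and Kcnt2 at 0.604 followed. Near the bottom lay Kcnip2 at −1.75, Kcnq3, a subunit of the M-channel that damps repetitive firing, at −1.59, and Kcnh3 at −1.58. Deposited lengths were 3476 bases for Kcnip2, 14708 for Kcnq3 and 5756 for Kcnh3, against a median of 5444 over the 45, and Kcnh7, with 15226 bases, had a ratio of 0.42. Single WT libraries of Kcnh5 ranged from 0.74 to 2.54 and those of Kcna1 from 1.09 to 2.79, so the order of the top 3 is within their spread.

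**Figure D5:**
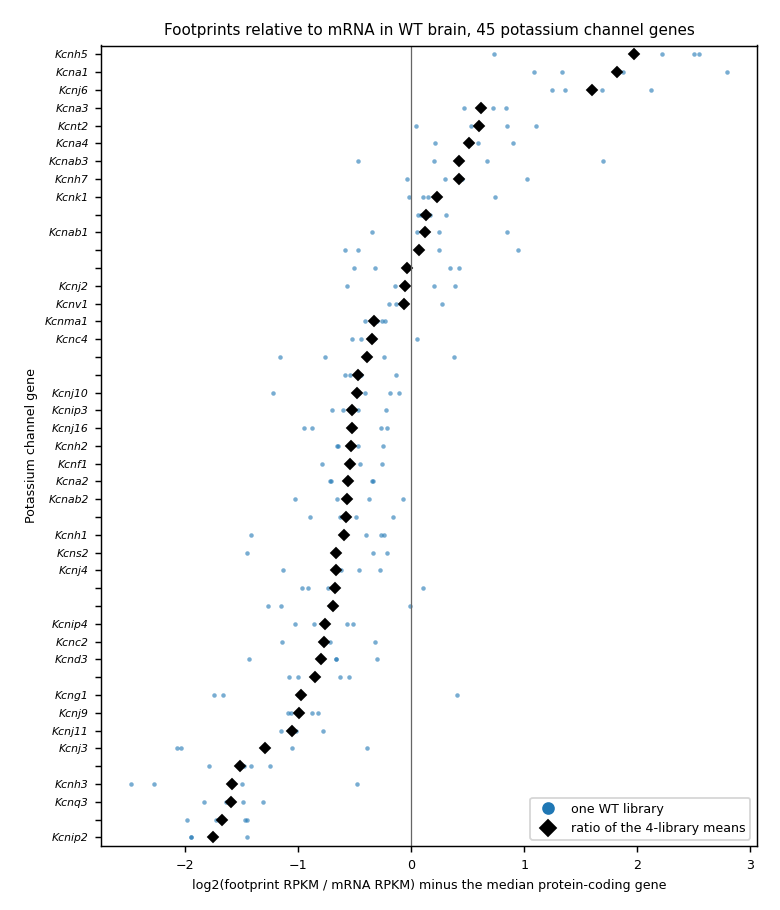
Log2 ratio of footprint to mRNA RPKM in WT brain for 45 potassium channel genes, relative to the median protein-coding gene (vertical line). Points are the 4 WT libraries and diamonds the ratio of their means, from −1.75 for Kcnip2 to 1.97 for Kcnh5. Names are printed for the genes described in the text.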

How the data were processed

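Whole-brain footprint and mRNA libraries, 4 WT and 4 KO of each kind, were taken as labelled. The submitters' processing notes name TopHat2 and mm10 without a role, and the counting program, annotation, use of strand and filters are not given in the sources used here. The deposited table holds raw counts per gene for both kinds of library. The deposited RPKM were made by the authors from counts and gene length, for each kind separately.

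edgeR 4.0.16 (R 4.3.3) took the counts of each kind: TMM library sizes, filterByExpr with a minimum count of 10, the quasi-likelihood test of KO against WT, and Benjamini-Hochberg adjustment over all genes tested, with 0.05 as the threshold. Fold changes are log2. Translational efficiency was the interaction term over genes passing in both kinds. The code was tested on simulated data. Alternatives were DESeq2 1.42.0, limma 3.58.1 on log2(RPKM + 0.1) and log2(RPKM + 1), other scalings and filters, a replicate block and leaving out libraries.

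The members, the role, comparison and marker lists (102 markers) and the naming rule were chosen with earlier results of these data known. The rule named members past the threshold, otherwise those with the lowest unadjusted p in each direction (up to 10 in mRNA, 6 in footprints and in translational efficiency), and those with the highest and lowest levels and ratios. Some genes that the rule would name are not reported here, although counts and medians include them. A few others are named because they belong to a short count or a role. No 2 libraries of the same genotype and kind agreed within sampling noise (chi-square per degree of freedom 7.159 to 74.77). Reading frame and fragment length were not analysed here.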

Additional observations from a re-analysis of the deposited data

Results flagged for a closer look

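Among 94 groups of 4 libraries of the named members, 5 held a library far from the other 3, where about 1 in 20, or 4.7 groups, is expected by chance. Each is given as a value. In mRNA, KO library 4 stood at 40.0 CPM for Kcna4, against 30.8 to 32.0 in the other KO libraries, and at 14.64 CPM for Kcna5, against 4.10 to 5.47. In footprints, WT library 4 stood at 9.045 CPM for Kcna3, against 7.93 to 8.06. KO library 2 stood at 19.0 CPM for Kcnab3, against 23.06 to 23.55, and KO library 3 at 23.06 CPM for Kcnf1, against 58.6 to 63.9.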

How the results depend on the processing

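The direction of the member median in mRNA (0.10 to 0.22), footprints (−0.21 to −0.10) and translational efficiency (−0.44 to −0.23) held under every alternative run. The number of members past the adjusted threshold was 0 in each comparison except that DESeq2 called 2 in mRNA and 2 in translational efficiency, and edgeR without a filter on low counts called 1 in mRNA (Kcnh7, against 0.0828% of all genes). At an unadjusted p under 0.05, leaving out 1 library moved the members counted as higher in mRNA from 18 to 8 to 28. Of all genes, 3.31 to 6.4% were then higher. The lower count went from 0 to 0 to 3, against 3.77 to 5.77% of all genes. In footprints the lower count ran from 1 to 5 (1.66 to 3.63% of all genes) and the higher count from 0 to 1 (2.31 to 3.89%). In translational efficiency the lower count ran from 7 to 11 (3.9 to 5.86%) and the higher count from 0 to 2 (4.47 to 6.31%). WT libraries 1 and 2 were chosen with these data seen, and KO libraries 1 and 3 likewise. Without the WT pair the counts in mRNA were 8 higher (3.56% of all genes) and 0 lower (3.92%). In footprints they were 0 higher (2.88%) and 1 lower (1.76%), and in translational efficiency 7 lower (3.66%) and 1 higher (4.78%). Without the KO pair the footprint counts were 3 lower (2.38%) and 1 higher (2.42%). Those of translational efficiency were 9 lower (4.11%) and 1 higher (4.2%). Without a filter all 69 members were tested in each comparison. The counts were then 24 higher (3.91%) and 1 lower (4.33%) in mRNA, and 0 higher (3.19%) and 5 lower (2.31%) in footprints. In translational efficiency they were 17 lower (5.23%) and 4 higher (4.94%). Footprints had 1 lower by DESeq2 (1.99% of all genes) and 1 lower with the replicate block (1.93%). By limma they had 1 lower (3.07 and 3.27%) and 1 higher (2.84 and 2.96%) with either pseudocount. Translational efficiency had 1 higher with upper-quartile scaling (5.38%), limma with either pseudocount (3.23 and 3.25%) or the replicate block (4.22%). In each of these settings 10 were lower (5.71, 6.13, 6.27 and 4.31% of all genes, in the same order). With the RPKM minimum, under which 54 members were tested, translational efficiency had 1 higher (5.37%) and 12 lower (5.44%). With CPM in place of RPKM, 4 of the 10 most abundant members were the same. The cause of these moves was not tested.

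Same-number WT and KO libraries were not paired by the labels, and their deviations correlated at −0.213 to 0.063 in mRNA and −0.247 to 0.075 in footprints. No library correlated best with its own number. The replicate block gave medians of 0.19 in mRNA and −0.17 in footprints and called 0 members. In translational efficiency the block instead tied the mRNA and footprint library of the same name, which the main fit did not do. It gave a median of −0.38 and called 0 members.

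For named members, 460 of 468 mRNA values, 315 of 323 footprint values and 296 of 304 translational efficiency values kept their sign and side of the threshold. Signs turned without WT libraries 1 and 2 in mRNA for Kcnd3 (0.0642), Kcng1 (0.19) and Kcng2 (0.0908), in footprints for Kcnh3 (0.26), and in translational efficiency for Kcnh3 (0.21) and Kcnd3 (−0.0797). They turned without KO libraries 1 and 3 in footprints for Kcnh5 (0.041) and Kcnh1 (−0.11), and in translational efficiency for Kcna4 (−0.0244). With 1 library left out, values on both sides of 0 were found in mRNA for Kcnj16 (−0.20 to 0.0056) and Kcnab1 (−0.27 to 0.045), in footprints for Kcnh1 (−0.10 to 0.25), Kcnh3 (−0.54 to 0.12) and Kcnc2 (−0.0554 to 0.27), and in translational efficiency for Kcnd3 (−0.0048 to 0.34), Kcnab1 (−0.0317 to 0.34) and Kcna4 (−0.0448 to 0.32). Footprint depth limited the rest: 24 of 69 members could not be tested there.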

Other observations

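Kcnj13, an inward rectifier of choroid plexus epithelium, lay just below the count rule. Its mRNA counts were 79, 68, 49 and 27 across WT libraries 1 to 4, against 65, 7, 32 and 5 across KO libraries 1 to 4. The summed level of the 6 choroid plexus markers in the same order was 1012, 1162, 671 and 308 CPM in WT and 1195, 129.7, 298 and 48.8 in KO. Kcne2, an auxiliary subunit also found in choroid plexus, had 29, 127, 30 and 6 mRNA counts in WT and 73, 2, 12 and 5 in KO. Kcng3 and Kcnu1, close to Kcnj13 in mean count, had 30 to 58 and 27 to 51 mRNA counts.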
